A study of Mus musculus with 10 samples.

Results

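The CCN family is a small group of secreted matricellular proteins, named after its founding members Cyr61, Ctgf and Nov, and its transcripts were compared here in mouse hearts with and without pressure overload. The members were the array probes whose deposited gene symbol is Cyr61, Ctgf, Nov, Wisp1 or Wisp2, older names of Ccn1, Ccn2, Ccn3, Ccn4 and Ccn5. Each of the 5 genes had 1 probe, so that 5 of the 26423 probes, and 5 of the 19942 gene symbols on the array, belong to the family. All 5 probes were among the 19976 kept after the filter on low values. Wisp3 (Ccn6), the remaining CCN gene, had 2 probes. Neither was found on any array, and the 1 that was kept was not called (mean log2 difference 0.25, adjusted p = 0.735 from limma).

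The hearts came from male C57BL/6J mice, 8 weeks old at the time of surgery, and the tissue was the left ventricle. TAB animals had a transverse aortic banding, a constriction of the aortic arch that raises the pressure against which the left ventricle must work. Sham animals had the operation without this constriction. On days 3, 5, 7, 14 and 28 from the operation there was 1 sample of either kind, which makes 10, and the number of mice behind a sample is not stated in the sources used here. For the TAB sample titled day 14, another label reads 15 days; the title was followed.

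CCN proteins are built from modules that resemble IGF-binding proteins, von Willebrand factor type C, the thrombospondin repeat and a cystine knot, and Wisp2 lacks the cystine knot. They are secreted into the extracellular matrix, bind integrins and heparan sulfate proteoglycans, and modify the action of growth factors such as TGF-beta, BMPs and VEGF. Cyr61 and Ctgf are classical targets of the coactivators YAP and TAZ, which act through TEAD factors, and of SRF with its MRTF cofactors. Ctgf also responds to TGF-beta, and Wisp1 and Wisp2 were first described as genes induced by Wnt1. In the heart, Ctgf is best known as a companion of fibrosis.

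Intensities were scaled to a common median per array, quantile normalized over the 10 samples and put on the log2 scale. The scanner software did not find 40.2% to 47.3% of an array's spots, and such spots were taken as not well above background. The 6 cardiomyocyte markers were found on all 10 arrays. Myl2 was saturated, so that its ratio says nothing, and none of the other 5 passed the test of the TAB effect. With probes not found left out, with 50 added before the log2 step, or with trend and robust on, 2 of the 6 passed as lower in TAB, as did 18.3%, 12.6% and 12.2% of all probes. No probe's level is set against that of another probe, since brightness depends on the probe. In whole ventricle, fewer cells of a type and less RNA per cell cannot be told apart.

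Ctgf, Wisp1 and Wisp2 were higher in TAB than in the sham sample of the same day on all 5 days, and their TAB and sham values did not overlap. Non-overlap with TAB higher held for 3 of the 5 members and for 8.78% of all probes. Cyr61 and Nov overlapped, and neither passed the test of the average TAB effect.

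**Figure D1:**
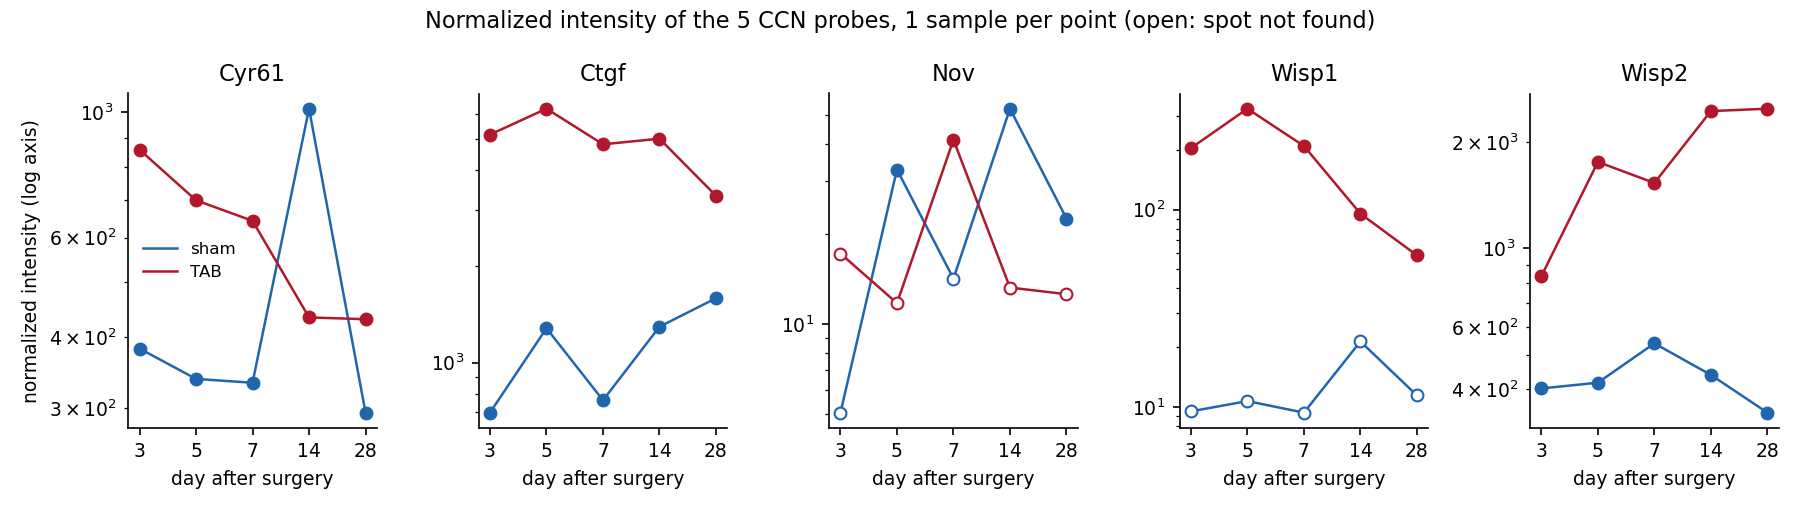
Normalized intensity (log axis, with its own range for each gene) of the 5 CCN probes against the day after surgery, 1 sample per point, TAB in red and sham in blue; open points are spots not found. The TAB and sham lines stay apart for Ctgf, Wisp1 and Wisp2, and cross for Cyr61 and Nov.

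Ctgf (probe PH_mM_0009653), the connective tissue growth factor, was found on all 10 arrays. From day 3 to day 28, its normalized intensity in the 5 TAB samples was 5170, 6231, 4822, 5020 and 3327. In the sham samples, in the same order of days, it was 698, 1281, 763, 1295 and 1591. The lowest TAB value, of day 28, lay 1.06 log2 units above the highest sham value, also of day 28. The log2 ratio of TAB over sham was 2.89, 2.28, 2.66, 1.95 and 1.06 from the earliest to the latest day. On day 28 both sides contributed, with the lowest of the TAB values and the highest of the sham values.

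Averaged over the days, Ctgf was 4.50-fold higher in TAB (95% interval 2.84 to 7.13, n = 5 days), a mean log2 difference of 2.17 (SE 0.27) with an adjusted p of 0.0174 from limma. The mean intensity was 4914 ± 1041 (SD, n = 5) in TAB and 1125 ± 382 (SD, n = 5) in sham, where the SD also holds the change over time. This difference stood 148th among the 19976 probes ranked from the highest to the lowest.

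Wisp1 (probe mMC018138), a CCN protein produced mainly by mesenchymal cells, was found on all 5 TAB arrays and on 0 of the 5 sham arrays. Its normalized intensity in TAB was 205, 325 and 210 on days 3, 5 and 7, and 95.3 and 58.6 on days 14 and 28. The sham values were 9.48, 10.7, 9.34, 21.4 and 11.4, all of them not well above background. The lowest TAB value, of day 28, was thus higher than the highest sham value, of day 14, by 1.45 log2 units.

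The Wisp1 spot was found on no sham array, so its sham level is uncertain. No firm lower limit of the fold can thus be given. As a guide, each sham array gave the higher of its measured value and its lowest found signal. Against these, the mean TAB level over all days was 11.7-fold higher. For days 3, 5 and 7 it was 21.6-fold, 30.4-fold and 14.8-fold higher, and for days 14 and 28 it was 4.45-fold and 5.13-fold. On all days but day 7 the measured sham value was used, so those folds are measured ratios over background values. The fit on the measured values, background values of the sham arrays included, gave a mean log2 difference of 3.67 (adjusted p = 0.0178 from limma). With 50 added to the intensities before the log2 step, it was 1.74.

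Wisp2 (probe mMC006993), the member without the cystine knot, was found on all 10 arrays. Its normalized intensity in TAB was 836, 1755 and 1531 on days 3, 5 and 7, and 2442 and 2481 on days 14 and 28. The sham values were 403, 418, 540, 440 and 344 in the same order. All TAB values were above all sham values, and the smallest distance was 0.63 log2 units, between TAB on day 3 and sham on day 7. The TAB values were lowest on day 3 and highest on days 14 and 28, and those of days 14 and 28 lay close together (11.25 and 11.28 on the log2 scale).

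Averaged over the days, Wisp2 was 3.97-fold higher in TAB (95% interval 2.50 to 6.33, n = 5 days), a mean log2 difference of 1.99 (SE 0.28) with an adjusted p of 0.0187 from limma. It stood 192nd among the 19976 probes.

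Cyr61 (probe PH_mM_0009259), the first CCN gene described and an immediate-early gene induced by serum, was found on all 10 arrays. In the TAB samples its normalized intensity was 859, 699, 643, 434 and 431, from day 3 to day 28. In the sham samples it was 382, 338, 332, 1014 and 294 in the same order. TAB was thus higher on 4 of 5 days, whereas the sham sample of day 14 held the highest Cyr61 value of all 10 samples. The mean log2 difference was 0.50 (SE 0.37, 95% interval −0.40 to 1.39, adjusted p = 0.390 from limma). Without both samples of day 14 it was 0.93, with an adjusted p of 0.0519 from limma, and over all alternatives the adjusted p lay between 0.0519 and 0.654.

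Nov (probe PH_mM_0001289), which has been described as a counterpart of Ctgf in models of fibrosis, was dim. It was found on 1 of 5 TAB arrays, of day 7, and on 3 of 5 sham arrays, of days 5, 14 and 28. Its normalized intensity was 17.2, 11.7, 41.3, 13.2 and 12.6 in TAB and 5.06, 32.8, 14.2, 52.5 and 22.5 in sham, from day 3 to day 28. The values of both operations overlapped, with TAB higher on days 3 and 7 only. The mean log2 difference was −0.20 (SE 0.63, 95% interval −1.74 to 1.34, adjusted p = 0.859 from limma). That interval is wide, and it holds both a higher and a lower level of Nov in TAB.

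In the limma fit over the 5 days, 3 of the 5 members thus passed as higher in TAB and 0 as lower, at an adjusted p of 0.05 over all 19976 probes. Of all probes, 7.47% (1492) were called higher and 6.73% (1344) lower. That split moved with the scaling, to 1747 higher and 884 lower after median scaling alone and to 1856 and 979 with the quantile step run within each operation. The 3 calls needed nearly all of the days. With day 3, day 5 or day 7 left out, 0 members passed, and adjusted p-values for Ctgf, Wisp1 and Wisp2 went up to 0.0776, 0.0790 and 0.0775. Without day 14 only Wisp1 passed, and without day 28 all 3 did. In these fits the mean log2 difference was 1.99 to 2.45 for Ctgf, 3.36 to 4.05 for Wisp1 and 1.78 to 2.22 for Wisp2. The number of calls over all probes also fell with a day left out, to 13 without day 3, 35 without day 5, 23 without day 7 and 184 without day 14.

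**Figure D2:**
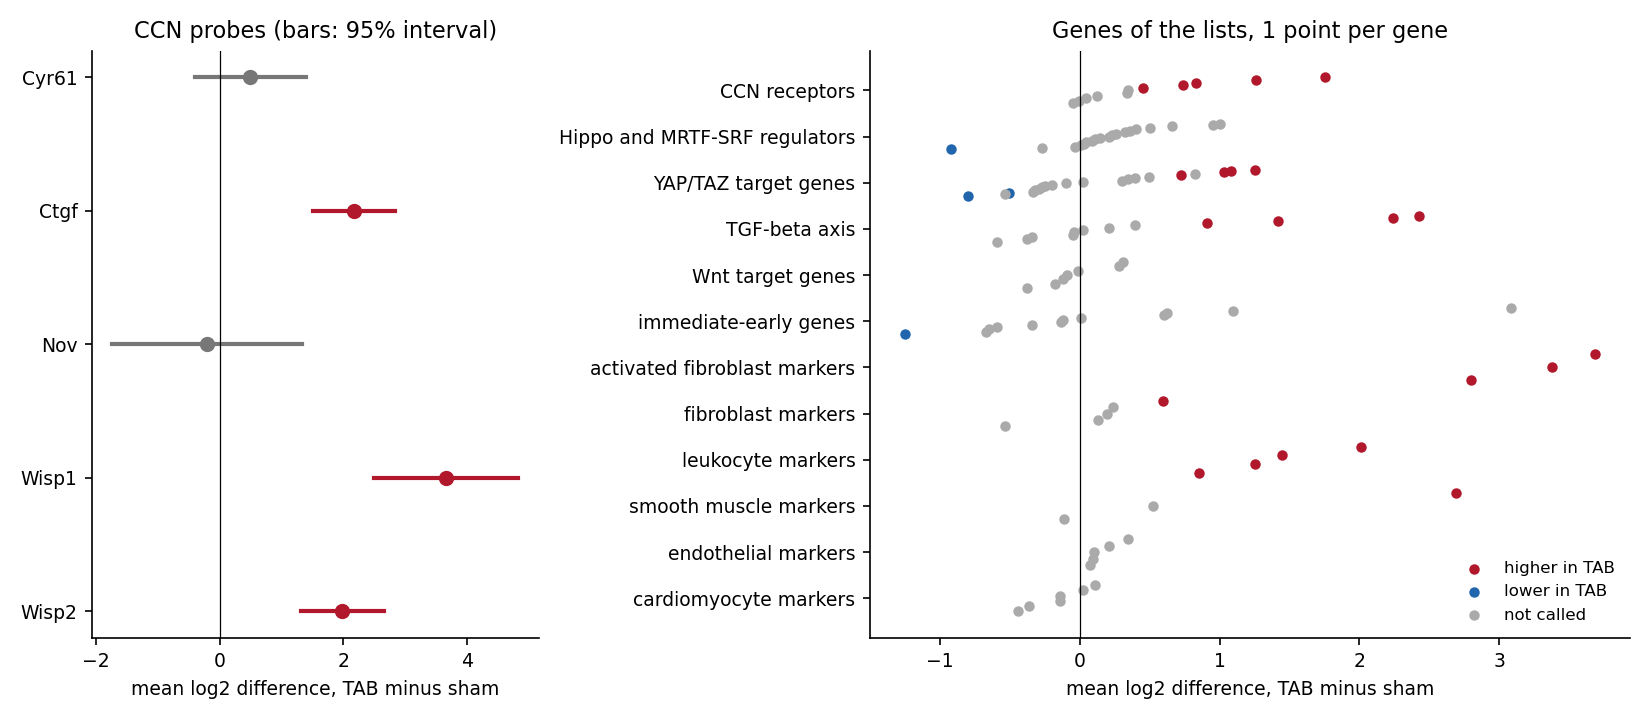
Left, mean log2 difference between TAB and sham over 5 days for each CCN probe, with the 95% interval of limma as a bar, in red where the adjusted p was under 0.05. Right, the same difference for each measured gene of 12 gene lists, 1 point per gene; points with an adjusted p under 0.05 are red (higher in TAB) or blue (lower). Ctgf, Wisp1 and Wisp2 lie between 1.99 and 3.67, where the Wisp1 value rests on sham spots that were not found, and the intervals of Cyr61 and Nov cross 0.

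A single day has 1 sample per operation and hence no replicate check. A daily ratio was therefore called, with no p-value, where it was further from 0 than 2 SDs, the SD being taken over the ratios of all probes that day. The limits on the log2 scale were 1.75, 1.87, 1.71, 1.46 and 1.38, from day 3 to day 28. Of the 25 member ratios, 13 were called up-regulated and 1 down-regulated.

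On day 3, Ctgf, Wisp1 and Nov were called up-regulated, 3 of the 5 members and 3.07% of all probes. The Nov ratio of 1.77 was just past the limit, and neither of its spots was found that day. On day 5, Ctgf, Wisp1 and Wisp2 were called, against 3.77% of all probes. On day 7 the calls were Ctgf and Wisp1, against 3.71%. Ctgf, Wisp1 and Wisp2 were called again on day 14, against 3.29% of all probes. Nov was the only member called down-regulated, also on day 14, with a log2 ratio of −1.99 and a background of 2.37%. The TAB spot was not found that day, and with 50 added the ratio was −0.70. On day 28, Wisp1 and Wisp2 were called, against 3.36%. Wisp1 was up-regulated on all 5 days, as were 62 (0.31%) of the probes.

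**Figure D3:**
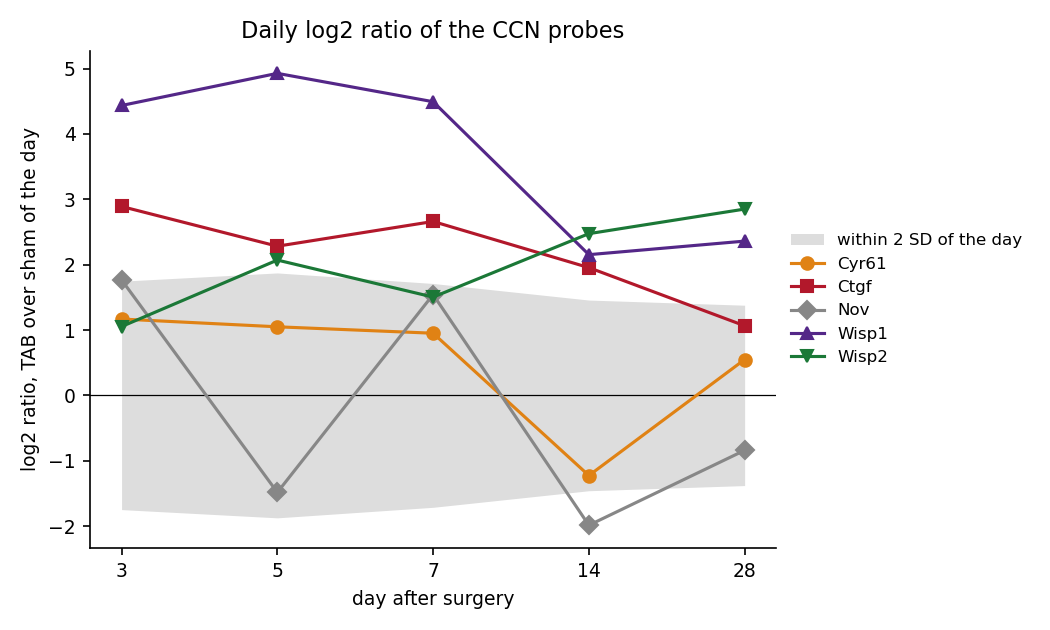
Log2 ratio of TAB over the sham sample of the same day (y axis) against the day after surgery for the 5 CCN probes; the grey band is 2 SDs of the day's ratios over all probes. Wisp1 lies above the band on every day, Wisp2 reaches its highest ratio (2.85) and Ctgf its lowest (1.06) on day 28, and Cyr61 stays within the band.

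The daily ratios of the 3 members that were higher in TAB were also compared between early days (3, 5 and 7) and late days (14 and 28). The measured log2 ratio of Wisp1 was 4.43, 4.93 and 4.49 on days 3, 5 and 7, and 2.15 and 2.36 on days 14 and 28. All 5 of these ratios were taken against sham spots that were not found, so their size depends on background values. The early mean was 2.36 higher than the late mean as measured, and 1.36 higher with 50 added before the log2 step. With 50 added, the 5 daily ratios of Wisp1 were 2.10, 2.63, 2.13, 1.02 and 0.82. For Ctgf the early mean was 1.10 higher (95% interval 0.18 to 2.02), but 0.66 higher without day 28 and 1.55 higher without day 14. For Wisp2 the ratios were 1.05, 2.07 and 1.50 on the early days and 2.47 and 2.85 on the late days. The early mean was therefore 1.12 lower than the late mean (95% interval −2.05 to −0.19).

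The difference between early and late days did not pass the adjusted threshold for any member. Unadjusted p-values from limma were 0.000199 for Wisp1, 0.0266 for Wisp2 and 0.0278 for Ctgf, and the adjusted ones 0.227, 0.439 and 0.442. The same contrast called 0 of the 19976 probes with limma, although 2086 (10.4%) had an unadjusted p under 0.05, and 0.227 was the lowest adjusted value of any probe. Cyr61 had a difference of 1.39 (adjusted p = 0.478 from limma), which was 0.51 without day 14, whose sham sample had the highest Cyr61 value, and 2.28 without day 28. Nov had a difference of 2.02 (adjusted p = 0.549 from limma), with 0.58 after 50 was added and 1.44 to 3.07 with a day left out, the extremes being without day 3 and without day 5. Cyr61 in TAB was highest on day 3 and lowest on day 28, 1.99-fold apart. Whether Wisp1 and Wisp2 differ from each other in their course was not tested.

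The sham sample of day 14 stood apart for Cyr61. At 1014, Cyr61 was 3.03-fold above the median of the other 4 sham samples. On the same array, 9 of 12 immediate-early genes, which respond within minutes to growth factors and stress, were at their highest sham value, with a median 2.62-fold above the median of the other shams. Of the 12, 3 (Fosb, Egr2 and Atf3) were not found on every sham array. Among the 9 that were, 7 had their highest sham value there, with a median of 3.87-fold. Egr1 was 8.69-fold and Fos 5.69-fold above it, 2 transcription factor genes named after their values were seen. The summed intensity of the 12 genes was 21118 in that sample, 4307 to 6397 in the other 4 sham samples and 4118 to 6838 in the TAB samples. Egr1 alone gave 10481 of the 21118. Fosl1 (0.69-fold) and Ier3 (0.53-fold) were below the median of the other shams in that sample. Of all probes, 21.3% had their highest sham value on that array, and 16.2% to 22.1% on each of the others.

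The atrial markers Myl7, Myl4 and Sln had their highest sum on the same array, 9973 against 4390 to 6598 in the other sham samples, and 2556 in the TAB sample of day 14. Their part in the Cyr61 value, and that of the immediate-early genes, was not tested. Wisp1 and Nov also had their highest sham value on day 14, the former on a spot that was not found. Ctgf (1295) and Wisp2 (440) of that sample lay within the range of the other shams.

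**Figure D4:**
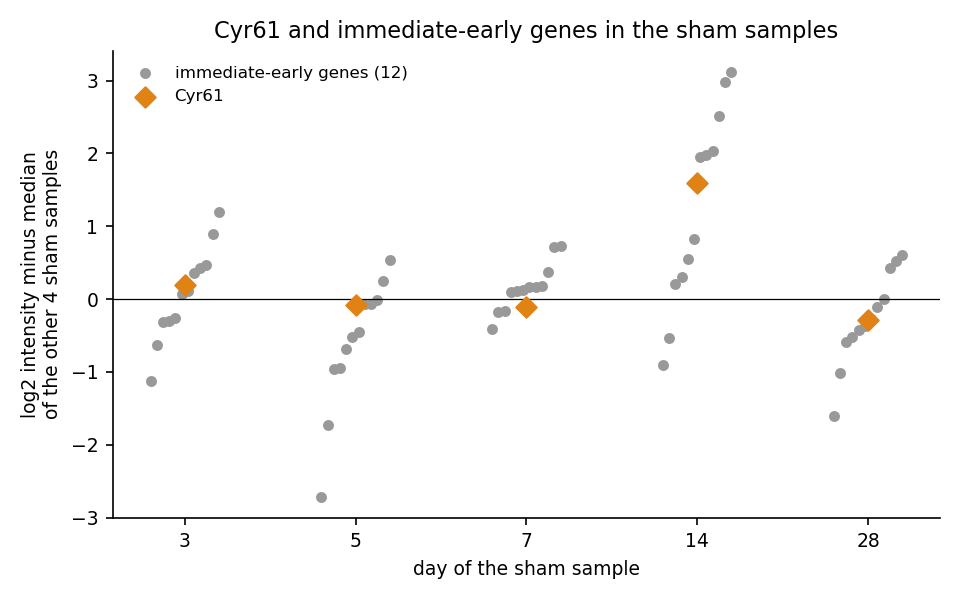
Log2 intensity in each sham sample minus the median of the other 4 sham samples (y axis), by day of the sample (x axis), for Cyr61 (orange) and 12 immediate-early genes (grey, spread sideways in ascending order). On day 14 Cyr61 is at 1.60 and 9 of the 12 genes are at their highest sham value.

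Over the TAB comparison, 1 of the 12 immediate-early genes passed the test, as lower, beside 6.73% of all probes. Dusp1, a phosphatase that switches off MAP kinases, was lower in TAB by a mean log2 difference of −1.25 (adjusted p = 0.0239 from limma). The median difference of the list was −0.13, and 0.39 without day 14. Other settings called genes of the list in both directions. With no block, 2 were higher and 3 lower, beside 10.1% and 9.31% of all probes. With 50 added, 3 were higher and 2 lower, beside 11.8% and 12.6%. The counts were 2 and 2 with trend and robust on (11.5% and 12.2%), with probes not found left out (16.3% and 18.3%) and without day 28 (7.28% and 6.60%).

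The proximal promoter of Cyr61 is shown because TEAD sites are a textbook route from YAP and TAZ to this CCN gene. It was the only promoter of the 5 members in the RefSeq table at hand. The sequence is from GRCm38.p6, chr3:145649936-145650235 on the minus strand, written 5′ to 3′ in the direction of transcription from 250 bases before to 50 bases after the annotated start. The capitals mark the match to the TEAD motif.

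Cyr61 promoter: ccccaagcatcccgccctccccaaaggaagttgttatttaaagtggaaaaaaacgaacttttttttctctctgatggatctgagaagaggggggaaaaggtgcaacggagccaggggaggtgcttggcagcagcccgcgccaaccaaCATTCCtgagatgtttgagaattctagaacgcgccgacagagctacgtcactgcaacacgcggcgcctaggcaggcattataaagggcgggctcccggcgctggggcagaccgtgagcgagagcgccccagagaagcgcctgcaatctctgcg

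Both strands were searched for 4 motifs, and none of the matches overlapped another. The TEAD motif GGAATG occurred once, on the minus strand relative to transcription, 103 bases before the start, and 14.7% of the 32851 promoters of this length in the table hold it. The core TGACG of a cAMP response element occurred once, 58 bases before the start (20.8% of promoters). TATAAA began 25 bases before the start (13.6%), and the SMAD motif CAGAC, present in 49.6% of promoters, at base 3 after it. These matches describe the letters of the window and do not show binding.

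Regulators of the Hippo pathway and of MRTF and SRF, which lie upstream of YAP and TAZ or act beside them, were mostly not called. Of 19 measured, 0 were called higher and 1 lower, beside 7.47% and 6.73% of all probes, with a median log2 difference of 0.21 beside −0.05 over all probes. The 1 called was Stk3, the kinase Mst2 at the top of the Hippo cascade (−0.92, adjusted p = 0.0178 from limma). Only 15 of the 19 were found on all arrays. With 50 added or with trend and robust on, 2 were called higher, beside 11.8% and 11.5% of all probes. With median scaling alone, the quantile step within each operation or probes not found left out, 1 was (8.75%, 9.29% and 16.3%). In each of these settings 1 was called lower, beside 4.43% to 18.3% of all probes. Yap1 itself had 0.23 (adjusted p = 0.167 from limma) and Wwtr1, which encodes TAZ, 0.40 (adjusted p = 0.0631 from limma); both were named here after their values were seen.

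Other target genes of YAP and TAZ were called in both directions. Of the 20, 4 were called higher (7.47% of all probes), 2 lower (6.73% of all probes) and 14 not at all, and the median was −0.04 (0.05 after median scaling alone). Those with the largest differences were Ccdc80, a matrix protein (1.25, adjusted p = 0.0143 from limma), the muscle ankyrin repeat protein Ankrd1 (1.08, adjusted p = 0.0178) and the receptor tyrosine kinase Axl (1.03, adjusted p = 0.0178). F3, the tissue factor that starts coagulation, was lower (−0.80, adjusted p = 0.0178 from limma). Ctgf, with a difference of 2.17, lay outside the range of these 20 genes, and Cyr61, with 0.50, within it.

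Of the TGF-beta axis, 4 of 12 measured genes were called higher and 0 lower, beside 7.47% and 6.73% of all probes, with a median of 0.12. With probes not found left out, 50 added or trend and robust on, 5 were called higher and 2 lower. Of all probes, 16.3%, 11.8% and 11.5% were then called higher and 18.3%, 12.6% and 12.2% lower. The median was 0.31 with 1 probe per gene and 0.02 with low probes kept at 1. Ltbp2, a matrix protein of the latent TGF-beta binding protein family, was higher by 2.24 (adjusted p = 0.0152 from limma). The ligand Tgfb3 (1.42, adjusted p = 0.0203 from limma) and the receptor Tgfbr2 (0.91, adjusted p = 0.0196 from limma) were higher as well. Tgfb1, the ligand most often linked to Ctgf, was not called (−0.34, adjusted p = 0.111 from limma) and is named after its value was seen.

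Of the receptors and binding partners of CCN proteins, 5 of 11 measured were called higher and 0 lower, beside the same shares of all probes, with a median of 0.35. Itgb2 (1.75, adjusted p = 0.0205 from limma) and Itgam (1.26, adjusted p = 0.0178 from limma) form the leukocyte integrin Mac-1. Lrp1, an endocytic receptor that binds Ctgf, was higher by 0.83 (adjusted p = 0.0378 from limma) and Itgb5, the beta chain of an integrin that binds vitronectin, by 0.74 (adjusted p = 0.0184 from limma). Itgb1 was also called, with 0.45 (adjusted p = 0.0403 from limma), and is named after its value was seen. The count of called receptors went to 0 when day 3, 5 or 7 was left out, and to 1 with day 14 left out.

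Of the target genes of Wnt signalling, 7 were measured and 0 were called in either direction by limma, beside 7.47% of all probes higher and 6.73% lower, and only 1 of the 7 was found on all arrays. With 1 probe per gene, 1 of the 7 was called lower and 0 higher, beside 7.87% and 9.19% of the probes then tested. Axin2, the usual reporter of the pathway, had a mean difference of −0.38 (adjusted p = 0.488 from limma). That mean rests on day 3, since the daily ratios of days 5 to 28 were −0.20, 0.15, 0.22 and −0.06.

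Markers of other cell types moved with the operation in some lists, and their counts stand beside 7.47% of all probes called higher and 6.73% lower. All 3 measured markers of activated fibroblasts were called higher, Col3a1 by 3.68 (adjusted p = 0.0178 from limma, found on 4 of 5 sham arrays), Postn by 3.37 (adjusted p = 0.00548 from limma) and Fn1 by 2.80 (adjusted p = 0.0191 from limma). Their summed intensity was 7643 to 19883 in TAB and 1354 to 1518 in sham. In TAB it was 16070, 19883, 18360, 14167 and 7643, from day 3 to day 28. Its highest and lowest days, 5 and 28, were also those of Wisp1 and Ctgf in TAB, whereas Wisp2 was highest on day 28. Most of the sum is Postn, whose mean log2 intensity in TAB was 13.67, against 9.91 for Fn1 and 8.64 for Col3a1. The course of the sum is therefore mainly that of 1 gene.

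Of the 5 measured markers of fibroblasts in general, 1 was called higher (Lum, 0.59, adjusted p = 0.0367 from limma) and 0 lower. Their sums were 39907 to 50607 in TAB and 37335 to 42035 in sham. All 4 measured leukocyte markers were called higher, among them Cd68 (2.01, adjusted p = 0.0266 from limma). Their sum was 4044, 4648 and 4657 in TAB on days 3, 5 and 7, 2164 on day 14 and 1783 on day 28, and 1057 to 1429 in sham. Of 3 smooth muscle markers, Tagln was called (adjusted p = 0.0354 from limma), on a probe found on 0 sham arrays. None of 5 endothelial and 3 atrial markers was called. The part of any of these cell types in the CCN values was not tested.

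The calls in these lists depended on the days as those of the members did. With day 3, 5, 7 or 14 left out, limma called 0 genes of the Hippo, YAP and TAZ target, TGF-beta and immediate-early lists and 0 of the fibroblast and leukocyte markers. Of the activated fibroblast markers, 0 were called without day 3, 2 without day 5 and 1 each without day 7 or day 14. With low probes kept at 1, limma called 0 of 4 leukocyte, 0 of 6 fibroblast and 0 of 4 smooth muscle markers and 0 of 12 immediate-early genes, so that the calls of Cd68, Lum, Tagln and Dusp1 were lost, while the median difference of the leukocyte markers was 1.35 in both settings. In that setting 2 of 13 receptors and 2 of 13 genes of the TGF-beta axis were called higher, and 3 of 20 YAP and TAZ targets higher and 1 lower. Over all probes it called 371, with 0.999% higher and 0.405% lower.

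For the 3 members found on all arrays, the 5 other genes with the most similar profile were sought by Pearson's r over the 10 samples. The 10 samples share the TAB and sham operations, so a gene that differs between them correlates with any other that does. For Ctgf these were Smad1 (0.982), Smc4 (0.981), Cdk14 (0.980), Txlna (0.980) and Ankrd1 (0.979). For Wisp2 they were Pdlim2 (0.974), Acap3 (0.965), Nbl1 (0.962), Nupr1 (0.962) and Cilp (0.953). For Cyr61 they included Sc4mol (0.959), Junb (0.939), Jak1 (0.929) and Tmem51 (0.927). No gene was on more than 1 of these lists. Neither Cyr61 nor the genes named with it passed the test of the TAB effect. The sham sample of day 14, which stood apart for Cyr61, can weigh heavily in r over 10 samples. Its part in the r values of Cyr61 was not tested. Among the members themselves, r over the 10 samples was 0.81 between Ctgf and Wisp2, 0.48 between Cyr61 and Ctgf and 0.24 between Cyr61 and Wisp2. Within the 5 TAB samples these were −0.41, 0.62 and −0.92, and within the 5 sham samples −0.59, 0.15 and 0.18.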

How the data were processed

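Per the labels, total RNA was labelled with Cy5 and hybridized to the Mouse Whole Genome OneArray, version 2, 1 sample per array. The authors deposited raw intensity per probe, background already subtracted and not scaled between arrays, with a flag and a p-value (not used). The flag −50 was read as a spot not found. Following the study's methods, arrays were scaled to a common median and the 6447 probes under 1 in any sample were removed. The rest were brought to a common distribution (quantile method, rank medians) over all 10 samples and put on the log2 scale. The methods speak of rank medians per condition, which can mean each operation by itself, and this was an alternative. Probes were kept apart.

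The TAB effect was tested with limma 3.58.1 (R 4.3.3; lmFit, eBayes), the day being the block, and p-values were adjusted over 19976 probes (Benjamini-Hochberg). Samples of a day are paired by the labelled day; their deviations from the group means correlated with r between 0.00148 and 0.112. Tables were made with Python 3.11.15, numpy 2.4.6, pandas 2.3.3 and matplotlib 3.10.9, and the fits were tested on simulated data. No refitting removed single samples, only whole days.

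Named genes are the CCN probes and, per list, up to 4 called genes with the largest absolute difference, or up to 2 where fewer passed; of several probes of a list gene the brightest was used. Some genes that meet this rule are not reported here, and a few named outside it are marked as such. Members and lists were chosen with earlier results of these data known. The days stand as replicates, so p-values measure the spread between samples of different days. The number of arrays limits the precision. Alternatives were scaling without the quantile step, the quantile step within an operation, low probes kept, probes not found left out, 50 added, 1 probe per gene, trend and robust estimation, no day block, each day left out and a fixed daily threshold.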

Additional observations from a re-analysis of the deposited data

Results flagged for a closer look

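In 2 of the 10 groups of 5 samples that were checked, 1 sample lay far from the others, with a gap to its nearest neighbour of over 0.71 of the whole range on the log2 scale. Chance alone gives about 1 in 20 groups. Cyr61 in the sham sample of day 14 was above the other 4 sham samples by a gap of 0.789 of the range, and Wisp1 in the same sample by 0.758 of the range. The Wisp1 spot was not found on that array, so its value is near background. The immediate-early genes and the atrial markers that were high in the same sample are given with Cyr61 above, and their part in these 2 values was not tested.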

How the results depend on the processing

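Ctgf, Wisp1 and Wisp2 had a higher mean in TAB under every alternative run, with log2 differences of 1.99 to 2.45, 1.74 to 4.05 and 1.78 to 2.22. They passed the adjusted threshold under 9 alternatives each, and the failures all came with a day left out. With low probes kept at 1 they passed narrowly, with adjusted p-values of 0.0474, 0.0485 and 0.0497 from limma. The CCN probes called numbered 3, 2 with probes not found on any 1 array left out, and 0 to 3 with a day left out. The fit with no replicate block changed no call of a member, with 3875 probes called against 2836 with the block. The number of probes called was 371 with low probes kept at 1, 4380 with probes not found on any 1 array left out, 4890 with 50 added before the log2 step, 4726 with trend and robust on, and 13 to 2773 with a day left out. Leaving out the probes not found removed Wisp1 and Nov. Of the called probes, 52.6% were higher in TAB (1492 higher, 1344 lower), but 66.4% after median scaling alone (1747 and 884) and 65.5% after quantile normalization within each operation (1856 and 979). For early against late days, 0 probes were called, and 9 with probes not found left out, 9 with 50 added and 35 with trend and robust on. No CCN probe was among these. Of the 25 daily ratios of members, 14 were called, 9 with low probes kept at 1 and 22 with a fixed absolute log2 ratio of 1. The share of all probes called with low probes kept or at the fixed ratio is not given. The counts of 9 and 22 can therefore not be read as a result about the members. With 50 added, all 5 ratios of Wisp1 were smaller (0.82 to 2.63), as were all 5 of Nov (0.29, −0.42, 0.51, −0.70 and −0.21, from day 3 to day 28). The difference of Nov ran from −0.69 (without day 3) to 0.25 (without day 14) with a day left out, and it changed sign without day 14 and, at 0.12, without day 5. The cause of these changes was not tested. Levels near background limit what Nov, Wisp3 and the sham values of Wisp1 can show, and 1 sample per operation and day leaves no spread within a day.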
